A study of Mus musculus with 54 samples.

Results

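The 7 genes described here encode ion channels of sperm, or a subunit of one, and were taken by symbol (Catsper1, Catsper2, Catsper3, Catsper4, Catsperb, Kcnu1 and Hvcn1) from both deposited RNA-seq count tables. All 7 were present among the 23284 genes of each table. CTCF binds DNA through zinc fingers and shapes chromatin folding in nearly all cells, and BORIS (gene Ctcfl) is its paralog, made mainly in male germ cells. The study asked what happens to germ cells when BORIS is lost and the Ctcf dose is reduced, alone or together. RNA was measured in whole testis, round spermatids and spermatocytes, and CTCF, BORIS, RNA polymerase II (Pol2) and H3K4me3, a histone mark of active gene starts, were mapped in testis by ChIP-seq.

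All mice were C57BL/6 males, 3 months old. WT mice carried intact copies of both genes, CTCF HET mice were Ctcf+/-, BORIS KO mice were Boris-/-, and CM mice, named DKO in the sample titles, were Ctcf+/-Boris-/-, so that CM retained one Ctcf copy and was not null for it. The deletions were in the germline of the animal and so present in all its cells, somatic cells of the testis included. Each preparation pooled 4 mice. Whole testis means here a germ cell-enriched suspension from tubules with the interstitium digested away, with 3 preparations for each of the 4 genotypes. Round spermatids (haploid cells after meiosis) and spermatocytes (cells in meiosis) were separated by elutriation and flow sorting, with 3 replicates for each genotype and 2 for WT spermatocytes.

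Sperm need calcium entry to beat in the vigorous, asymmetric manner called hyperactivation. The entry route is CatSper, a channel found only in the sperm tail. Its pore is built from the products of Catsper1, Catsper2, Catsper3 and Catsper4, and Catsperb encodes an auxiliary transmembrane subunit. Kcnu1 encodes Slo3, the potassium channel opened by alkaline pH and depolarization that sets the membrane potential of mouse sperm. Hvcn1 encodes the proton channel Hv1, which lets acid leave the cell and is best known in phagocytes and in human sperm. Male mice without a CatSper pore subunit or without Slo3 are infertile. Genes of the sperm tail are transcribed largely in spermatids, before chromatin condensation shuts transcription down, and some already in meiosis.

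Genomic windows are shown first because they carry the CTCF and BORIS peaks inside these genes. Each window is 151 bases of mm9, centred on a peak summit of the WT lists and printed along the strand of the gene. Capitals mark each match to CNNNAGNNGGC, a short part of the known CTCF motif that was searched on both strands. Windows that hold annotated UTR bases (at Catsper2 near Pdia3 and at Hvcn1) are described further on by height only, and the BORIS window within the higher CTCF peak of Kcnu1 is not repeated.
Catsper1, intron, CTCF, chr19:5338054-5338204, plus strand: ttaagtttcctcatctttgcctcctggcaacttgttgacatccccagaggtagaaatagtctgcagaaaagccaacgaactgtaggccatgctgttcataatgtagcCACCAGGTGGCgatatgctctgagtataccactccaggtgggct
Catsper2, intron, CTCF, chr2:121234008-121234158, minus strand: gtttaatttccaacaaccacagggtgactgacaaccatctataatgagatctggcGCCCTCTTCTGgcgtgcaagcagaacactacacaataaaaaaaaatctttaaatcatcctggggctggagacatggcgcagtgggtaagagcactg
Catsper2, intron, BORIS, chr2:121222503-121222653, minus strand: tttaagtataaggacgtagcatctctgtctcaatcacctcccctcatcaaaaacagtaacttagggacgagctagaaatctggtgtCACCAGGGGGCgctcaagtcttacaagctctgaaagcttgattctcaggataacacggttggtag
Catsper3, intron, CTCF, chr13:55892026-55892176, plus strand: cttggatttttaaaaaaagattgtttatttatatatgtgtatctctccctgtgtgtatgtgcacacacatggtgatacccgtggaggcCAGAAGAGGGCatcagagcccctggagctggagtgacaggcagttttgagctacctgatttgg
Kcnu1, intron, higher CTCF peak, chr8:27007975-27008125, plus strand: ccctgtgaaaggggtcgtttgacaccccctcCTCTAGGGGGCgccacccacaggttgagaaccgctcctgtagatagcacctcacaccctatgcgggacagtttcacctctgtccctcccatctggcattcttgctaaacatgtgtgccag
Kcnu1, intron, lower CTCF peak, chr8:27037301-27037451, plus strand: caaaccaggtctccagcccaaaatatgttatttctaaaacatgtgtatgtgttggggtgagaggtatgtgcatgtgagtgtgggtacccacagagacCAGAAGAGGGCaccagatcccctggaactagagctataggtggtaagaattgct
Kcnu1, intron, BORIS without CTCF, chr8:26973126-26973276, plus strand: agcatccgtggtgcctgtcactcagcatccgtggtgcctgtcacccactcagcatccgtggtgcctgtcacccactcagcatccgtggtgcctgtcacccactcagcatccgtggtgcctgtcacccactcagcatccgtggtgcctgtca
Among the 6 windows with a match, those of Catsper3 and of the lower Kcnu1 peak carry the same match, and that of the Catsper2 CTCF window is its reverse complement. The last window is a tandem repeat with no match. The windows with UTR bases, not printed, held no match either, and those at Catsper2 include BORIS windows. The motif was present in 60.7% of 34624 such windows over all WT CTCF peaks and in 66% of 7652 over all WT BORIS peaks. The windows of Catsper3 and of the lower Kcnu1 peak shared the 13-base run ccagaagagggca, and the longest run shared by the Catsper2 CTCF and Catsper3 windows, read on opposite strands, was also 13 bases. Both runs contain the match itself. The windows of Catsper3 and of the Kcnu1 tandem repeat, which has no match, shared a run of 12 bases.

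Total counts per library ranged from 10437683 to 42055813 in whole testis, from 47740650 to 98545423 in round spermatids and from 53337530 to 88946702 in spermatocytes. Levels are given as counts scaled to the TMM-adjusted library total (CPM) for a gene followed across libraries, and as RPKM (CPM per kilobase of annotated exon) when genes are compared with each other. The tables of whole testis and of sorted cells were scaled separately. The 10 spermatid marker genes summed to 2014 to 2214 CPM in WT round spermatids and to 54.4 to 54.7 CPM in WT spermatocytes, and the 9 spermatocyte markers to 5160 to 6034 CPM and 11290 to 11380 CPM. All libraries of both sorted cell types fell on the side of their label, although spermatocyte markers remained in round spermatids.

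The genotype check was mixed. In whole testis Ctcf was lower in CM (log2 fold change -0.74, edgeR adjusted p = 0.0329) and stood at -0.66 in CTCF HET, where the adjusted p was 1. In round spermatids labelled CM, Ctcf measured 172.1, 44.6 and 39.5 CPM against 48.7, 31.3 and 29.4 CPM in WT, and in spermatocytes the log2 fold change was 0.62 for libraries labelled CM and 0.34 for those labelled CTCF HET. None of these differences was called (edgeR adjusted p of 0.235, 0.376 and 0.366). These sorted libraries did not show the lower Ctcf expected from their label. They are therefore called libraries labelled CM or labelled CTCF HET below, and directions drawn from them rest on the label. Ctcfl was lower in BORIS KO round spermatids (-0.78, edgeR adjusted p = 0.0248) but kept 1.97 to 2.39 CPM against 2.84 to 5.12 CPM in WT. The deleted exons are not given in the sources used here, and reads outside them check nothing.

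In WT round spermatids, Catsper2 stood highest per exon length of the 7 genes, at 369.3 ± 15.2 RPKM (SD, n = 3). Catsper1 followed at 134.1 ± 9.3 RPKM and Catsperb at 129.1 ± 5.0 RPKM, and these neighbours overlapped between libraries. Kcnu1 reached 71.9 ± 4.9 RPKM, Catsper3 58.3 ± 1.1 RPKM, Catsper4 27.9 ± 0.66 RPKM and Hvcn1 1.85 ± 0.70 RPKM, with no overlap between neighbours in this order. In WT spermatocytes (n = 2) only Catsper2, at 266.8 ± 33 RPKM, and Catsperb, at 167.6 ± 20 RPKM, were above 5 RPKM. The order in WT whole testis was less distinct. Catsper2 (69.8 to 77.4 RPKM) overlapped Catsper4 (51.2 to 74.3 RPKM), and Catsper4 overlapped Catsper1, Catsper3 and Kcnu1. Catsperb (24 to 31.3 RPKM) overlapped only Kcnu1 (28.5 to 59.2 RPKM), and Hvcn1 lay below 1 RPKM in all 3 libraries. The levels of Catsper2 depend on the annotation, since its locus has 5 transcripts and dividing by the longest alone gave 617.8 RPKM in round spermatids.

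**Figure D1:**
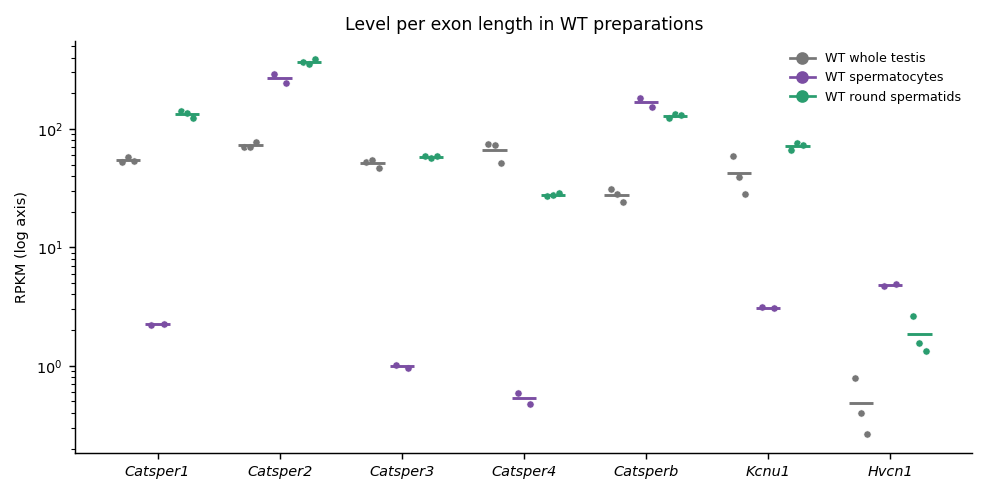
Level per exon length (RPKM, log axis) of the 7 genes in WT whole testis (grey), WT spermatocytes (purple) and WT round spermatids (green); points are libraries and lines are means. Catsper1, Catsper3, Catsper4 and Kcnu1 lie far lower in spermatocytes than in round spermatids, while Catsper2 and Catsperb are high in both.

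The step from spermatocytes to round spermatids in WT divided the genes into those that rose steeply after meiosis and those already abundant or higher in it. Catsper1 rose from 4.59 and 4.63 CPM in spermatocytes to 292.5, 281.6 and 255.2 CPM in round spermatids. This was 61.1-fold (log2 fold change 5.93, SE 0.13, edgeR adjusted p = 1.18e-07). Catsper3 rose 59.8-fold (edgeR adjusted p = 1.23e-07) and Catsper4 53.6-fold (edgeR adjusted p = 2.07e-07), so the 3 pore genes moved by similar factors. Kcnu1, the potassium channel gene, rose 23.6-fold (edgeR adjusted p = 1.53e-07), from 11.4 and 11.3 CPM to 244.4, 279.8 and 265.5 CPM. The pore gene Catsper2 rose by only 1.41-fold (edgeR adjusted p = 0.00371), from 1113 and 933.5 CPM to 1410, 1362 and 1478 CPM. The auxiliary subunit gene Catsperb went the other way and fell by 0.35 on the log2 scale (edgeR adjusted p = 0.018), and Hvcn1 fell by 1.34 (edgeR adjusted p = 0.00369), from 16.7 and 17.6 CPM to 9.46, 5.55 and 4.78 CPM. In all, 5 of the 7 genes were called higher in round spermatids, beside 35.8% of all genes tested, and 2 were called lower, beside 34.2%. The median log2 fold change was 4.56 for the 7 genes and 0.02 for all genes.

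In whole testis the 4 pore genes of CatSper were lower in CM than in WT. Catsper1 measured 108.2, 119.6 and 111.3 CPM in WT and 60.7, 60.3 and 49.3 CPM in CM. It fell to 0.489 of its WT level (log2 fold change -1.03, SE 0.22, edgeR adjusted p = 0.0173). All 3 CM preparations lay below all 3 WT preparations, with a wide gap. Catsper2 measured 267.6, 269.9 and 296.7 CPM in WT and 123.0, 208.1 and 140.4 CPM in CM, a fall of 0.85 on the log2 scale (SE 0.27, edgeR adjusted p = 0.0478). Its groups did not overlap either, although the second CM preparation came near to WT. Catsper3 fell from 71.2, 73.7 and 63.7 CPM to 37.9, 44.4 and 41.9 CPM (log2 fold change -0.78, SE 0.21, edgeR adjusted p = 0.0303). Catsper4 fell from 156.0, 154.8 and 107.5 CPM to 82.1, 76.8 and 64.7 CPM (log2 fold change -0.94, SE 0.23, edgeR adjusted p = 0.0237). For both genes every CM preparation was below every WT preparation.

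The other 3 genes did not pass the test in CM whole testis. Catsperb measured 116.2, 105.0 and 89.2 CPM in WT and 50.1, 83.8 and 70.9 CPM in CM, without overlap (log2 fold change -0.62, SE 0.26, edgeR adjusted p = 0.104). Kcnu1 spread widely within each genotype, from 104.1 to 216.5 CPM in WT and from 61.0 to 138.7 CPM in CM, and in each genotype the preparation numbered 1 was the highest (log2 fold change -0.75, SE 0.35, edgeR adjusted p = 0.134). Hvcn1, the least abundant, measured 2.80, 1.42 and 0.946 CPM in WT and 9.58, 1.35 and 3.19 CPM in CM (log2 fold change 1.39, SE 0.66, edgeR adjusted p = 0.144). In all, 4 of 7 genes were called lower, beside 8.80% of all genes tested, and the median log2 fold change was -0.78 for the 7 genes and 0.0035 for all genes. Equally numbered preparations varied together, and with the preparation number as a block all 7 genes were called, beside 43.0% of all genes. In that blocked fit Catsperb stood at -0.66 (edgeR adjusted p = 0.0355), Kcnu1 at -0.78 (edgeR adjusted p = 0.0109) and Hvcn1 at 1.20 (edgeR adjusted p = 0.0318). Without the block the calls depended on single libraries. None of the 7 was called without WT replicate 2, WT replicate 3 or CM replicate 3, when only 11, 3 and 4 genes were called in all, and 1 (Catsper1) was called without WT replicate 1.

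Cell composition moved with this comparison. The 10 spermatid markers summed to 19740 to 27280 CPM in WT and to 5540 to 14580 CPM in CM whole testis, and 5 of them were called lower. The 7 Leydig cell markers summed to 367 to 636 CPM in WT and to 1879 to 3773 CPM in CM (5 called higher), and the 7 Sertoli cell markers to 209 to 340 CPM and to 544 to 1125 CPM (4 called higher). Of the 7 macrophage markers 5 were called higher in CM (median log2 fold change 2.05), while their sum was 470 to 656 CPM in WT and 496 to 718 CPM in CM. Spermatogonium markers summed to 53.7 to 74.6 CPM and to 118.5 to 418 CPM, but only 2 of 8 were called higher, with a median log2 fold change of 0.11. The part of these shifts in the lower CatSper levels and in the Hvcn1 values was not tested. In such bulk libraries, fewer cells of a type and less RNA per cell cannot be told apart.

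Each mutation alone gave smaller differences in whole testis. In CTCF HET, log2 fold changes of the 7 genes ranged from -0.35 to 0.48 with a median of 0.04, and none was called by edgeR, beside 0.00621% of all genes. DESeq2 called none of them either. At an unadjusted p below 0.05, 424 of 16097 genes passed, against 1 called by edgeR and 3 by DESeq2 after adjustment. In BORIS KO, the median of the 7 genes was -0.37 against 0.03 for all genes, and none was called, beside 0.0551% of all genes. Without adjustment Catsper1, Catsper2 and Catsper4 passed 0.05, as did 2717 of 16344 genes, and DESeq2 called 386 genes but none of the 7. Catsper1 measured 97.4, 85.0 and 82.8 CPM in BORIS KO, all below WT (log2 fold change -0.37, SE 0.15, edgeR adjusted p = 0.274). With the preparation number as a block, Catsper4 (-0.46, edgeR adjusted p = 0.044) and Kcnu1 (-0.43, edgeR adjusted p = 0.049) were called lower in BORIS KO, beside 6.59% of all genes. Leydig cell markers summed to 749 to 1490 CPM in BORIS KO against 367 to 636 CPM in WT, and Sertoli cell markers to 400 to 483 against 209 to 340 CPM. No marker of these lists was called without the block. Spermatid marker sums overlapped between BORIS KO and WT. The part of these shifts in the values of the 7 genes was not tested.

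**Figure D2:**
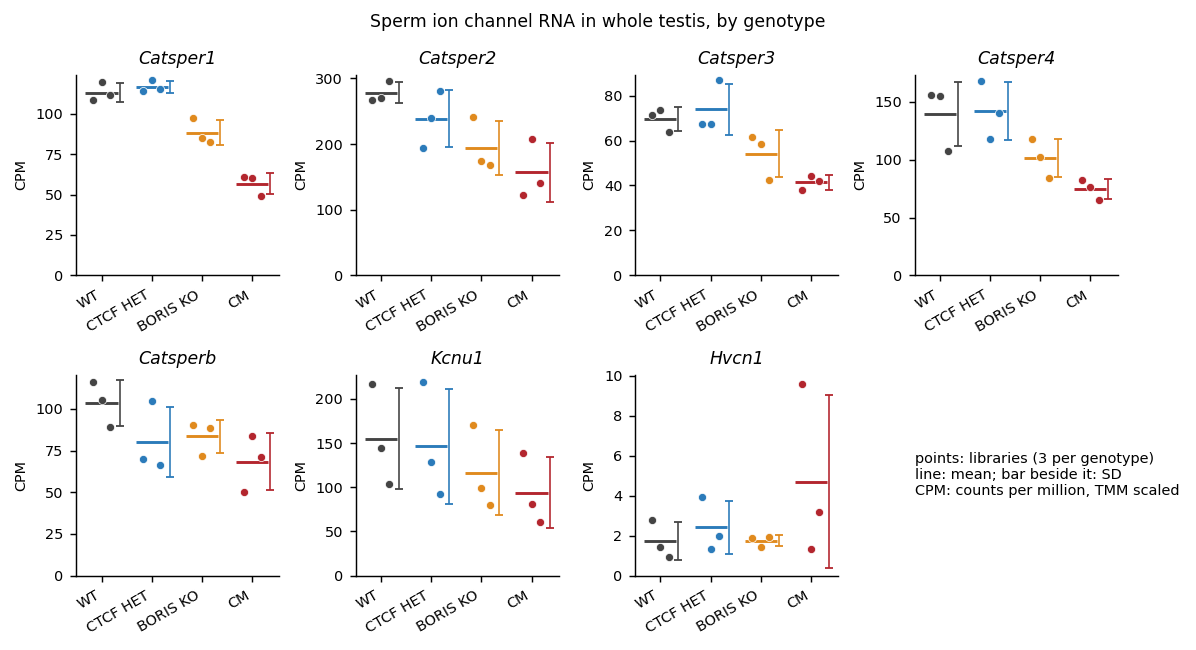
CPM of the 7 genes in whole testis of the 4 genotypes; points are preparations, lines are means and bars are SD (n = 3 per genotype). Catsper1 to Catsper4 and Catsperb show no overlap between WT and CM, while Kcnu1 and Hvcn1 do.

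In BORIS KO round spermatids all 7 genes were called, 5 lower and 2 higher. Catsperb showed the largest difference, at 142.3, 151.2 and 143.9 CPM in BORIS KO against 458.7, 493.1 and 488.0 CPM in WT. It fell to 0.312 of WT (log2 fold change -1.68, SE 0.082, edgeR adjusted p = 3.28e-06). Catsper2 measured 603.7, 618.9 and 556.6 CPM against 1410, 1362 and 1478 CPM, a fall to 0.430 of WT (log2 fold change -1.22, SE 0.084, edgeR adjusted p = 9.85e-06). These genes, the pair already abundant in spermatocytes, were separated from WT by gaps far wider than the spread within either genotype. Kcnu1 fell to 0.506 of WT, at 128.1, 127.2 and 134.0 CPM (edgeR adjusted p = 3.2e-05). Catsper3 fell by 0.53 on the log2 scale, at 51.0, 51.8 and 58.0 CPM against 80.7, 77.8 and 79.6 CPM (edgeR adjusted p = 0.000879). The pore genes were not uniform. Catsper1 fell by 0.36 (edgeR adjusted p = 0.0108), whereas Catsper4 rose from 57.4, 58.4 and 60.1 CPM to 68.4, 74.1 and 69.5 CPM (log2 fold change 0.31, SE 0.092, edgeR adjusted p = 0.0187). Hvcn1 rose as well, from 9.46, 5.55 and 4.78 CPM to 11.2, 12.2 and 10.8 CPM (log2 fold change 0.82, SE 0.24, edgeR adjusted p = 0.0165). The 5 lower calls stand beside 29.0% of all genes called lower and the 2 higher calls beside 26.8% called higher, so that most genes of the table moved in this comparison. Among markers of the germ cells, 5 of 9 for spermatocytes were called lower and 1 higher (median log2 fold change -1.25), with sums of 4207 to 4395 CPM in BORIS KO and 5160 to 6034 CPM in WT. Of the 10 spermatid markers 4 were called lower and 2 higher (sums of 1287 to 2084 CPM in BORIS KO and 2014 to 2214 CPM in WT). The part of these differences in the values of the 7 genes was not tested.

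These differences moved with base composition. Over all genes, the log2 fold change of BORIS KO against WT round spermatids had a Spearman correlation of 0.71 with the G+C content of the exons, a description across genes of the same libraries. Catsperb has the lowest exon G+C of the 7 genes (37.2%) and Hvcn1 the highest (55%), and genes within 1 percentage point of each had median log2 fold changes of -1.26 and 0.71. Around Catsper2 (47.6%) the median was -0.185, around Kcnu1 (45.8%) -0.402 and around Catsper4 (51.4%) 0.247. With a smooth G+C trend removed in the fit, which takes away true differences that follow G+C along with it, 5 genes were called, beside 37.3% of all genes. Catsper2 stood at -1.01 (edgeR adjusted p = 2.05e-05), Catsper1 at -0.63 (edgeR adjusted p = 0.000547) and Kcnu1 at -0.57 (edgeR adjusted p = 0.000355). Catsperb stood at -0.48 (edgeR adjusted p = 0.00258) against -1.68 without this step, and Catsper3 at -0.43 (edgeR adjusted p = 0.00332). Catsper4 (0.08) and Hvcn1 (0.17) were no longer called.

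In CTCF HET round spermatids 4 genes were called, all lower, beside 12.8% of all genes called lower. Catsper3 fell most, from 80.7, 77.8 and 79.6 CPM in WT to 42.6, 41.7 and 44.5 CPM (log2 fold change -0.87, SE 0.096, edgeR adjusted p = 0.00236). Kcnu1 fell to 167.5, 141.6 and 177.5 CPM (log2 fold change -0.68, SE 0.11, edgeR adjusted p = 0.0062). The groups of both genes were well apart. Catsper1 fell by 0.46 on the log2 scale, at 198.4, 193.5 and 202.6 CPM (edgeR adjusted p = 0.0131), and Catsper4 by 0.34, at 43.5, 47.6 and 45.9 CPM (edgeR adjusted p = 0.0416). The genes that fell are the 4 that rose steeply after meiosis in WT. The remaining 3 genes did not pass: Catsper2 stood at -0.21 (edgeR adjusted p = 0.168), Catsperb at -0.25 (edgeR adjusted p = 0.305) and Hvcn1 at 0.71 (edgeR adjusted p = 0.0646). Of the 10 spermatid markers, 7 were also called lower, and their sum was 1312 to 1447 CPM against 2014 to 2214 CPM in WT; their part in the result was not tested. The correlation of log2 fold change with G+C across genes was 0.502, and with the G+C trend removed the same 4 genes were called, beside 21.6% of all genes, with Catsper3 at -0.85 and Kcnu1 at -0.54.

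Round spermatids labelled CM varied more from library to library. Catsper1 measured 159.2, 80.1 and 121.8 CPM, and Catsper3 43.8, 29.8 and 37.4 CPM. Catsper4 measured 37.9, 20.5 and 34.8 CPM, and Kcnu1 152.8, 105.5 and 169.7 CPM. For these 4 genes every library labelled CM was below every WT library. The log2 fold changes were -1.13 (SE 0.23) for Catsper1, -1.02 (SE 0.18) for Catsper3, -0.85 (SE 0.23) for Catsper4 and -0.81 (SE 0.19) for Kcnu1. Their edgeR adjusted p ranged from 0.107 to 0.169, so none was called. Catsper2 (1470, 657.6 and 1684 CPM) and Catsperb (483.6, 253.9 and 549.4 CPM) lay on both sides of WT, with the second library lowest, at log2 fold changes of -0.09 and edgeR adjusted p of 0.904 and 0.878. Hvcn1 measured 10.2, 2.45 and 5.81 CPM (log2 fold change -0.04). edgeR called none of the 7 genes, beside 0.00654% of all genes, a single gene. Without adjustment 4 of the 7 genes and 3136 of 15298 genes passed 0.05. DESeq2 called the same 4 genes lower, beside 11.7% of all genes called by DESeq2 in either direction, with adjusted p of 0.0015 (Catsper1), 0.00021 (Catsper3), 0.0193 (Catsper4) and 0.00795 (Kcnu1). Libraries labelled CM detected 14932 to 16670 genes against 17504 to 17985 in WT, and the spermatid markers summed to 815 to 1179 CPM. The second one also held the highest sum of spermatogonium markers (354.6 CPM), and the first one had the Ctcf level of 172.1 CPM. Without the first library, Catsper1 and Catsper3 were called lower by edgeR.

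In BORIS KO spermatocytes 5 of the 7 genes were called, 2 lower and 3 higher. Catsperb measured 242.4, 239.4 and 269.1 CPM in BORIS KO against 676.4 and 569.4 CPM in WT (log2 fold change -1.32, SE 0.083, edgeR adjusted p = 1.38e-06). Catsper2 measured 445.4, 538.1 and 536.8 CPM against 1113 and 933.5 CPM (log2 fold change -1.02, SE 0.098, edgeR adjusted p = 1.3e-05). Both genes were thus lower in BORIS KO in both sorted cell types, with no overlap with WT in either. Catsper1 rose from 4.59 and 4.63 CPM to 4.87, 7.87 and 7.93 CPM (log2 fold change 0.58, edgeR adjusted p = 0.0368), a low level throughout. Catsper4 rose from 1.24 and 0.992 CPM to 1.39, 2.34 and 2.06 CPM (0.79, edgeR adjusted p = 0.0107), and Hvcn1 from 16.7 and 17.6 CPM to 22.5, 20.7 and 20.9 CPM (0.31, edgeR adjusted p = 0.00394). Catsper3 (0.30) and Kcnu1 (-0.20) did not pass, with edgeR adjusted p of 0.231 and 0.296. The 2 lower calls stand beside 28.1% of all genes and the 3 higher calls beside 29.1%. Of the 9 spermatocyte markers 6 were called lower and 1 higher, with sums of 8475 to 9072 CPM in BORIS KO and 11290 to 11380 CPM in WT, and their part in the result was not tested. The correlation with G+C across genes was 0.629, and with the trend removed 3 genes were called, beside 42.2% of all genes: Catsper2 (-0.88), Catsperb (-0.65) and Catsper4 (0.68).

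In spermatocytes labelled CTCF HET, Catsper2 rose to 1881, 1470 and 1600 CPM (log2 fold change 0.69, SE 0.13, edgeR adjusted p = 0.0149) and Kcnu1 from 11.4 and 11.3 CPM to 25.1, 24.7 and 23.4 CPM (1.11, SE 0.17, edgeR adjusted p = 0.00891). Hvcn1 fell from 16.7 and 17.6 CPM to 5.19, 9.0 and 8.84 CPM (-1.16, SE 0.29, edgeR adjusted p = 0.0363). None of the 3 overlapped with WT. The 2 higher calls stand beside 6.77% of all genes and the lower call beside 8.76%. Catsper1 stood at 1.37, Catsper3 at 1.71 and Catsper4 at 1.48, all 3 above every WT library but not called (edgeR adjusted p of 0.0667, 0.0743 and 0.137). With the G+C trend removed (correlation -0.425 across genes), Catsper2 (0.60) and Kcnu1 (0.90) were called, beside 8.97% of all genes, and Hvcn1 was not. The CTCF HET libraries had 12018 to 13406 genes detected against 17631 to 17683 in WT, and 4 of 10 spermatid markers were called higher (median log2 fold change 1.28); the part of either in the result was not tested. None of the 7 genes was called without CTCF HET library 2, when edgeR called 1 of 13691 genes in all against 2119 with it. That library held 94 counts of Ctcfl against 0 in the other 2 libraries of the group.

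In spermatocytes labelled CM none of the 7 genes was called by edgeR, beside 0.604% of all genes, while 4 of the 7 and 4391 of 14747 genes passed an unadjusted p of 0.05. DESeq2 called Catsper1 (adjusted p = 0.0176), Catsper3 (adjusted p = 0.0404) and Kcnu1 (adjusted p = 0.048) higher, beside 21.9% of all genes called by DESeq2. Catsper1 measured 6.33, 9.39 and 24.8 CPM (log2 fold change 1.6, SE 0.59) and Kcnu1 12.1, 20.9 and 33.0 CPM (1.00, SE 0.41). The first library was nearest to WT for both. Catsper2 and Catsperb, lower in BORIS KO spermatocytes, stood at 0.06 and 0.16 here, though CM mice also lack BORIS. Neither of them was called (edgeR adjusted p = 0.854 and 0.389). The sum of spermatid markers was 55.1, 123.6 and 189.1 CPM in these 3 libraries, against 54.7 and 54.4 CPM in WT and 138.2, 146.7 and 86.6 CPM in spermatocytes labelled CTCF HET. The markers therefore ordered the CM libraries as Catsper1 and Kcnu1 did, and their part in the higher levels was not tested. Without the first CM library edgeR called 5 genes, of which Catsper1, Catsper3, Catsper4 and Kcnu1 were higher and Hvcn1 lower.

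**Figure D3:**
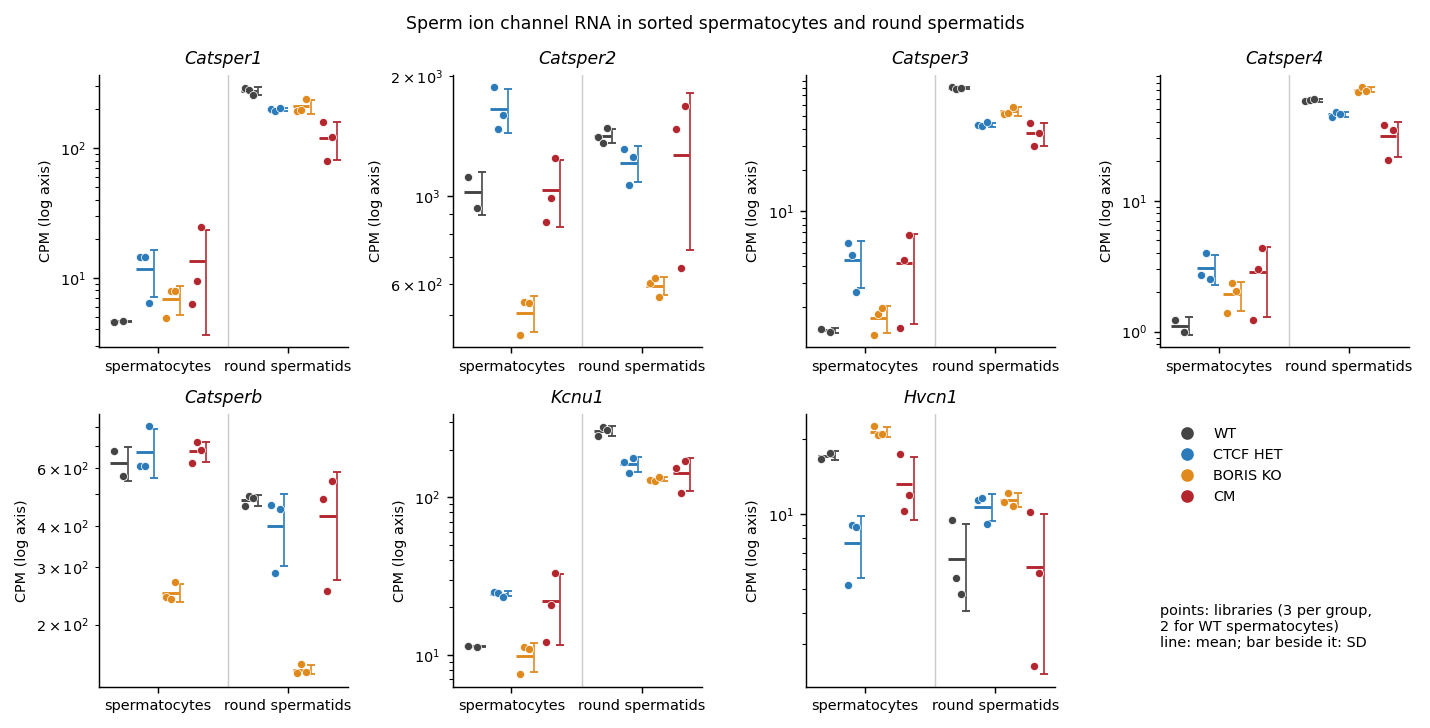
CPM (log axis) of the 7 genes in sorted spermatocytes (left of each panel) and round spermatids (right) of the 4 genotypes; points are libraries, lines are means and bars are SD (n = 3, or 2 for WT spermatocytes). Catsper2 and Catsperb lie lowest in BORIS KO in both cell types.

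Whether the CM difference itself depended on the cell type was tested in 1 fit. The CM effect in round spermatids minus that in spermatocytes was -2.78 for Catsper1 (SE 0.63, edgeR adjusted p = 0.0335), -2.76 for Catsper3 (SE 0.63, edgeR adjusted p = 0.0357) and -1.87 for Kcnu1 (SE 0.46, edgeR adjusted p = 0.0454) on the log2 scale. These 3 calls, all lower, stand beside 3.43% of all genes called lower. Catsper4, at -2.31, narrowly missed (edgeR adjusted p = 0.0539). Of the 10 spermatid markers, 5 were called lower in this test and 0 higher, with a median of -2.03, and their part in the result was not tested. With the G+C trend removed Catsper1 (-2.97), Catsper3 (-2.69) and Catsper4 (-2.46, edgeR adjusted p = 0.0447) were called, and Kcnu1 (-1.65, edgeR adjusted p = 0.0591) was not. Calls in either direction then made up 3.50% of all genes. None of the 7 was called when any library of WT, round spermatid library 2 or 3 labelled CM, or spermatocyte library 2 labelled CM was left out.

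**Figure D4:**
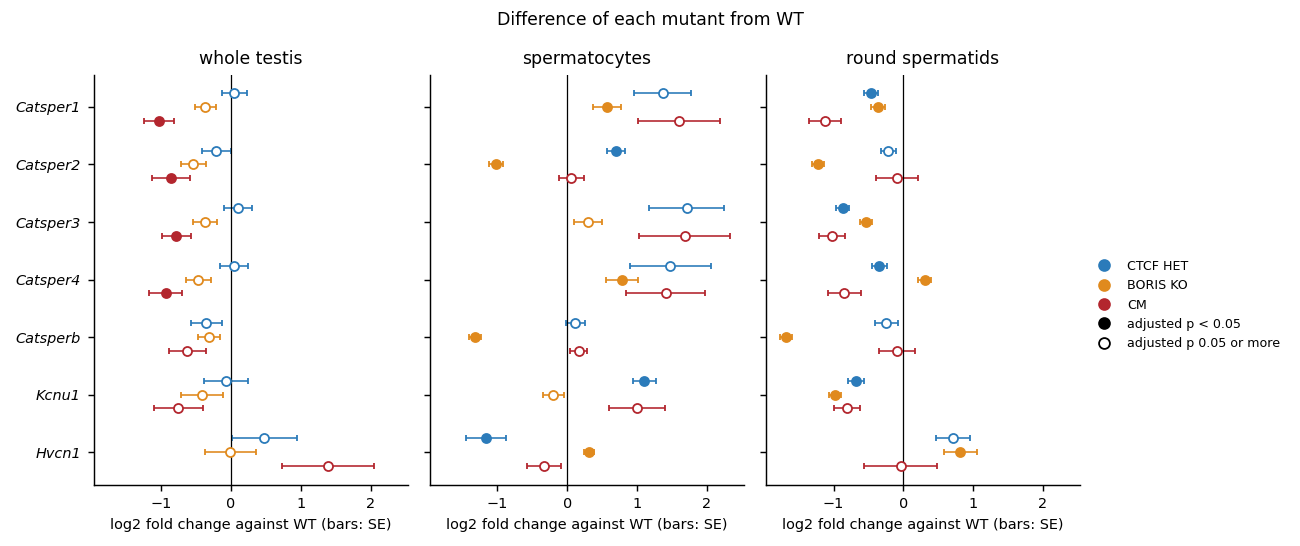
Log2 fold change against WT of each gene (edgeR, bars are SE) in whole testis, spermatocytes and round spermatids for CTCF HET, BORIS KO and CM; filled points had an adjusted p below 0.05. All comparisons within a panel share the same WT libraries, and Catsper1, Catsper3, Catsper4 and Kcnu1 of libraries labelled CM point to higher values in spermatocytes and to lower values in round spermatids.

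CM and BORIS KO share the loss of BORIS and differ in the Ctcf copy. In whole testis none of the 7 genes was called between them, beside 0.00600% of all genes, with a median log2 difference of -0.34; 3594 of 16655 genes passed an unadjusted p of 0.05, edgeR called 1 gene and DESeq2 1201. In round spermatids, Catsper4 was lower in the libraries labelled CM (20.5 to 37.9 CPM against 68.4 to 74.1 CPM, log2 difference -1.20, SE 0.25, edgeR adjusted p = 0.0224). Catsperb was higher (253.9 to 549.4 CPM against 142.3 to 151.2 CPM, 1.54, SE 0.29, edgeR adjusted p = 0.0186). Neither gene overlapped between the genotypes, but these 2 calls stand beside 23.2% of all genes. Neither was called with the G+C trend removed (Catsper4 -1.01, Catsperb 0.19, edgeR, beside 2.18% of all genes), nor without any single BORIS KO library or library 3 labelled CM. Catsper2 was higher in all 3 libraries labelled CM than in every BORIS KO library. It was not called (log2 difference 1.08, SE 0.35, edgeR adjusted p = 0.0618).

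The test of non-additivity asks whether the effect of losing 1 Ctcf copy differed between mice without and with BORIS. In whole testis it called none of the 7 genes and 0% of all genes with edgeR, 1713 of 17185 genes passed without adjustment, and DESeq2 called 29. In round spermatids it called 5 of 7, beside 37.4% of all genes. The differences of log2 effects were 1.75 for Catsperb (SE 0.34, edgeR adjusted p = 0.00222), 1.26 for Catsper2 (SE 0.35, edgeR adjusted p = 0.0155) and 0.77 for Kcnu1 (SE 0.22, edgeR adjusted p = 0.0159). They were -0.89 for Catsper4 (SE 0.25, edgeR adjusted p = 0.0159) and -1.65 for Hvcn1 (SE 0.58, edgeR adjusted p = 0.0406). The correlation with G+C across genes was -0.613. With the trend removed none of the 7 was called, beside 18.9% of all genes. These comparisons use the same libraries as those above and rest on the CM label.

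Other genes of sperm ion transport were followed as a list of 25, of which 23 were in the tables. In CM whole testis 6 of 22 tested were called lower and 0 higher, with a median log2 fold change of -0.60, beside 8.80% of all genes called lower. These were Lrrc52 (-1.35, edgeR adjusted p = 0.0156), the partner subunit of Slo3, Slc9a10 (-0.98, edgeR adjusted p = 0.0225), the sperm sodium-proton exchanger, and Adcy10 (-1.17, edgeR adjusted p = 0.0195), the bicarbonate-activated adenylyl cyclase. The other three were Atp1a4 (-1.25, edgeR adjusted p = 0.03), the sodium pump subunit of sperm, Pkdrej (-0.84, edgeR adjusted p = 0.0306) and Cngb3 (-1.44, edgeR adjusted p = 0.0172). edgeR called 0 in whole testis of CTCF HET (1 at an unadjusted p below 0.05) and of BORIS KO (6 without adjustment), and 0 in round spermatids and spermatocytes labelled CM (4 and 11 without adjustment). With the G+C trend removed Cacna1h, Catsperg1, Slc9a10 and Tmem146 were called lower in spermatocytes labelled CM, beside 3.17% of all genes.

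In BORIS KO round spermatids 10 of 22 listed genes were called lower and 4 higher, beside 29.0% and 26.8% of all genes. The lower ones included Efcab9 (-1.42) and Als2cr11 (-1.24), which encode CatSper-associated proteins, Slco6c1 (-1.51), Slc9a10 (-1.35), Nhedc1 (-1.28), Lrrc52 (-0.88), Gm16432 (-1.30), Cftr (-1.08), Cngb3 (-1.87) and Kcnma1 (-0.90). The higher ones were Catsperg1 (0.46), an auxiliary CatSper subunit gene nearly identical to Catsperg2 so that its reads are uncertain, Slc26a6 (1.02), Trpc2 (0.59) and Cacna1h (1.36). With the G+C trend removed Gm16432, Cftr, Kcnma1, Slc26a6 and Cacna1h were no longer called, while 1700019N12Rik (lower) and Catsperg2 (higher) entered, beside 37.3% of all genes. In CTCF HET round spermatids Efcab9 (-1.19), Slco6c1 (-0.49), Lrrc52 (-1.05), Nhedc1 (-0.46), Atp1a4 (-0.66) and Cngb3 (-1.60) were called lower, and Pkdrej (0.50) and Cacna1h (0.81) higher, beside 12.8% and 9.51% of all genes. There the G+C offset removed Slco6c1, Nhedc1 and Cacna1h and added 1700019N12Rik (lower) and Atp2b4 (higher), beside 21.6% of all genes. In BORIS KO spermatocytes 12 of 22 were called lower, with Slco6c1 (-0.95), Als2cr11 (-0.94), Nhedc1 (-0.93) and Slc9a10 (-0.93) close together, and 3 higher (Slc26a6, Trpc2 and Cacna1h), beside 28.1% and 29.1% of all genes. With the offset 8 were lower, these 4 among them, and 3 higher (Catsperg1, Catsperg2 and Trpc2). In WT, 12 listed genes were higher in round spermatids than in spermatocytes, among them Efcab9 (6.55), Lrrc52 (6.01), Cngb3 (5.50) and Atp1a4 (5.11), and 7 were lower, among them the auxiliary subunit genes Tmem146, Catsperg1 and Catsperg2, beside 35.8% and 34.2% of all genes. With the offset 8 were higher and 8 lower, beside 71.9% of all genes. Genes of CatSper subunits and partners were thus called in both directions between the WT cell types.

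The genes nearest in pattern were found over 12 group means, by the root mean square difference of log2(CPM + 1) after centring each profile within each table, among 11685 genes. For Catsper3 the nearest were Sgms2 (0.0742), 4921530D09Rik (0.103) and 4930558C23Rik (0.114). For Catsper1 they were Tmc5 (0.107), Tbata (0.107) and 4930578I06Rik (0.122), and for Catsper4 Spn-ps (0.106), Pacs2 (0.107) and Amac1 (0.11). Catsper2 had Mns1 (0.102), Ube2u (0.109) and Ccdc62 (0.11), Catsperb had Eif5 (0.116), Rab11fip2 (0.128) and Zfp91 (0.131), Kcnu1 had Fbxl13 (0.125), 4930524N10Rik (0.131) and Ssxb1 (0.137), and Hvcn1 had Pank4 (0.143), Akt2 (0.144) and Imp3 (0.162). Among the 7 genes, Catsper3 and Catsper4 (0.228) and Catsper1 and Catsper4 (0.237) were closest. Catsper2 was nearer to Catsperb (0.383) than to Catsper1 (1.83), so the pore genes did not form a single pattern.

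Peaks within 2 kb of the 7 genes numbered 7 for CTCF in WT, 4 for CTCF in CM and 5 for BORIS in WT. Each list is 1 set for 2 replicates (1 library for H3K4me3) with no stated scaling between genotypes, so heights and scores are read by their percentile within their own list, and presence or absence of a peak has no replicate check. Catsper1, on chr19:5335741-5344153 (plus strand), held an intronic CTCF peak 2388 bp inside its start, with a height of 1972 (percentile 83.8) in WT and 769 (percentile 98) in CM. This is the first sequence shown above. Catsper2, on chr2:121218367-121240317 (minus strand), had an intronic WT CTCF peak of height 516 (percentile 51.2) that was also listed in CM (height 211, percentile 30.3). Deeper in the same gene, a BORIS peak of height 97 (percentile 58.3) coincided with a CM CTCF peak of height 194 (percentile 26.2) and with no WT CTCF peak. Near the start, where Catsper2 overlaps the divergent gene Pdia3 by 807 bp, a low WT CTCF peak (height 103, percentile 1.85) met 2 BORIS peaks of height 63 and 75 and had no CM counterpart.

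Kcnu1, on chr8:26960095-27048405 (plus strand), carried a high intronic CTCF peak of height 1936 (percentile 83.3) with a BORIS peak of height 80 (percentile 48), and the CTCF peak was also listed in CM (height 350, percentile 56.1). A lower one (height 123, percentile 11.9) was absent from the CM list. The BORIS peak over the tandem repeat (height 62, percentile 32.5) had no CTCF peak in either genotype. Catsper3, on chr13:55885929-55910359 (plus strand), had only a low intronic WT CTCF peak (height 114, percentile 8.41), and Hvcn1, on chr5:122656813-122692306 (plus strand), only a low one in a UTR (height 108, percentile 4.62) beside an internal annotated start, neither listed in CM. Catsper4, on chr4:133767885-133783298 (minus strand), and Catsperb, on chr12:102642883-102864219 (plus strand), had no CTCF or BORIS peak in any list. In total 3 of the 7 CTCF peaks of WT were listed again in CM and 4 were not, and the 4 absent ones were the lowest 4 in height. Of the 34625 peaks in the whole WT list, 56.1% had an overlapping peak in CM, 85.8% of the upper 50% by height and 26.5% of the lower 50%.

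Marks of transcription at the gene starts are given for peaks within 1 kb of the start. Pol2 had a WT peak at 6 of the 7 starts and a CM peak at 5. The Pol2 lists held 25192 peaks in WT and 28407 in CM, and the H3K4me3 lists 34347 and 20432. Because the lists differ in length, the percentiles describe each list and are not compared as a change. Catsper3 stood at percentile 95 of the WT Pol2 list and 76.9 of the CM list, Catsper4 at 93.7 and 83.6, Kcnu1 at 97.3 and 78.6, and Catsper1 at 72.9 and 59.4. The WT peak at Kcnu1 also covered the start of the divergent gene Ash2l, 1928 bp from Kcnu1. CM listed a separate Pol2 peak over the start of Ash2l (percentile 90.8). Catsper2 stood at 86.3 and 94.7, at a start region shared with Pdia3. Catsperb had a Pol2 peak at percentile 73.5 in WT and none in CM, and along its 221337 bp the number of Pol2 peaks was 7 in WT and 1 in CM. For H3K4me3 the percentiles in the WT and CM lists were 85.6 and 26.7 at Catsper1, 77.8 and 52.1 at Catsper3, 65.8 and 38.8 at Catsper4 and 87.6 and 83.9 at Catsper2. At Kcnu1 the highest WT peak within 1 kb stood at 93.8, but its middle lay 140 bp from the start of Ash2l. That peak ended before the start of Kcnu1. The WT peak just inside Kcnu1 stood at 86, and the CM peak, at 97, covered the starts of both genes. Catsperb had an H3K4me3 peak (percentile 38.8) in WT and none in CM, and Hvcn1 had neither mark in either genotype. Of all WT peaks, 65.2% for Pol2 and 51.4% for H3K4me3 overlapped a CM peak of the same mark.

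**Figure D5:**
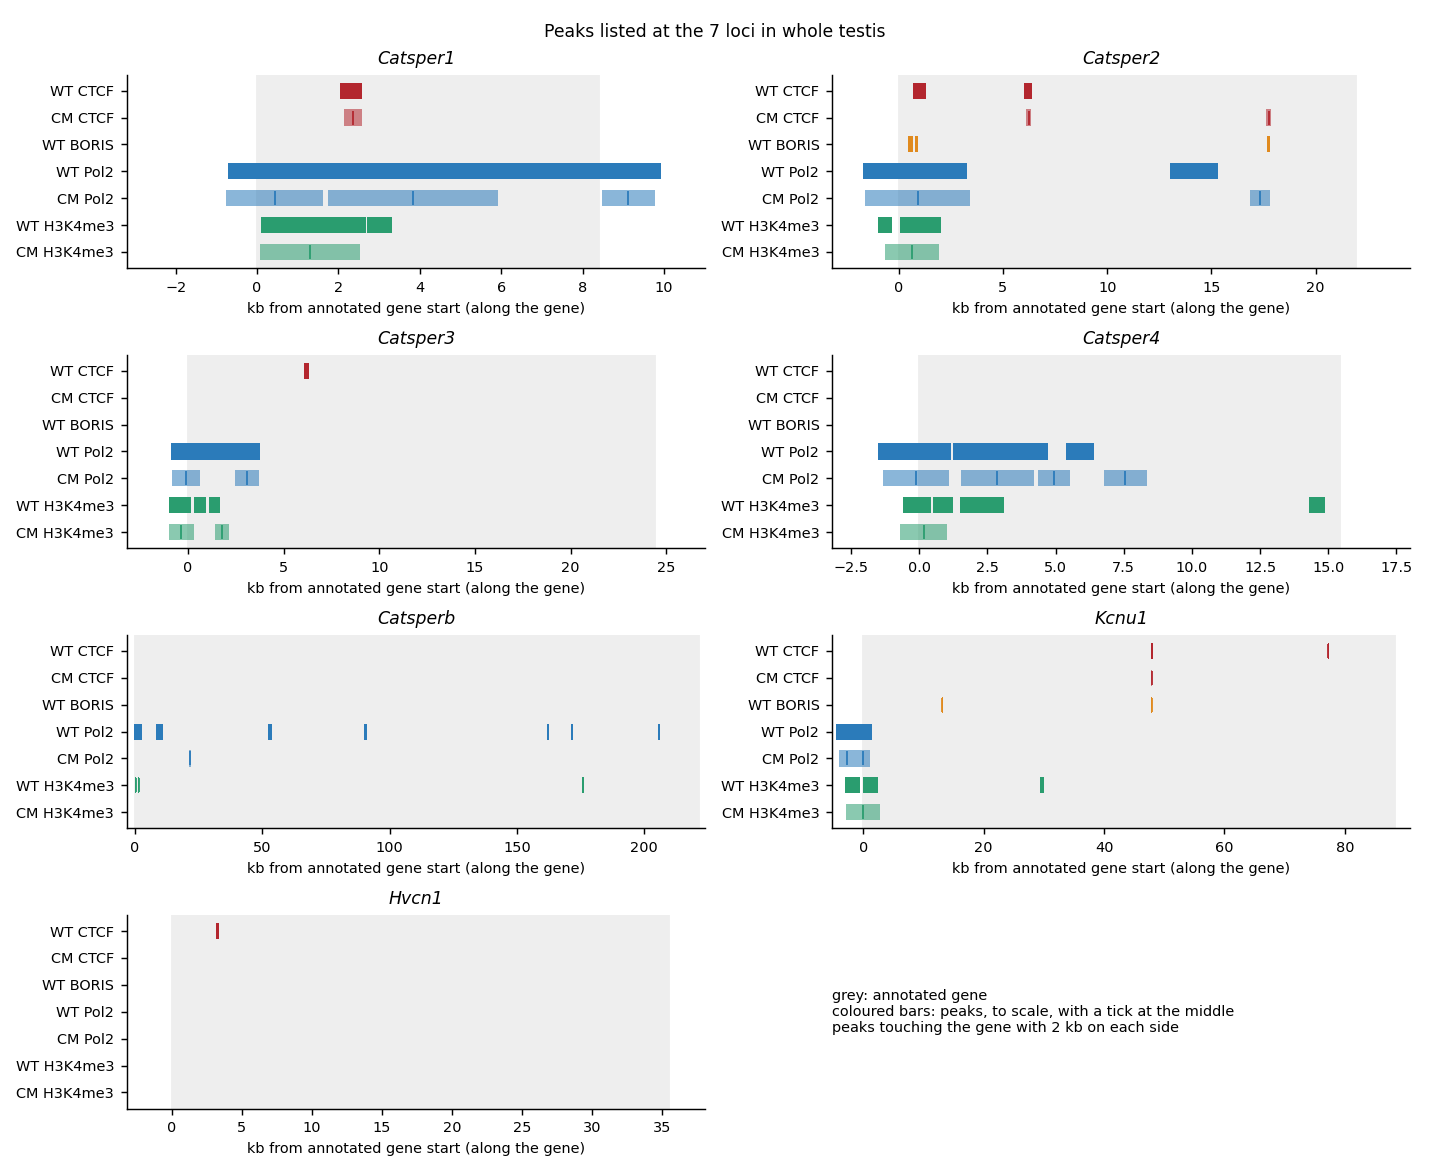
Peaks of each list at the 7 genes, drawn to scale against distance in kb from the annotated gene start along the gene, with the gene in grey. CTCF or BORIS peaks lie at Catsper1, Catsper2, Catsper3, Kcnu1 and Hvcn1. Of the gene starts drawn, only that of Catsper2 has such a peak within 1 kb. In WT, Pol2 and H3K4me3 peaks lie within 1 kb of the starts of all genes but Hvcn1.

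The 200 bases before the start of each gene were also searched on both strands for TGACGTCA, the full cAMP response element, and AACNGTT, a core recognised by MYB factors, which act in germ cells. Neither was found at any of the 7 genes, and over 22375 protein-coding genes the shares were 1.83% and 2.6%. No match says only that these letters are not in this window.

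Overlapping genes limit a few of these values, because the strand setting of the counting is not given in the sources used here. Catsper2 overlaps Pdia3 on the opposite strand, and Pdia3 itself was lower in BORIS KO round spermatids (-0.82, edgeR adjusted p = 0.000102) and spermatocytes (-0.62, edgeR adjusted p = 2.94e-05). Hvcn1 overlaps Tctn1 over 1011 bp on the opposite strand, and Tctn1 was higher in BORIS KO round spermatids (0.98, edgeR adjusted p = 0.000551) and spermatocytes (0.46, edgeR adjusted p = 0.000316) and in CTCF HET round spermatids (0.51, edgeR adjusted p = 0.0431). For non-additivity in round spermatids Pdia3 stood at 0.80 (edgeR adjusted p = 0.00829) and Tctn1 at -1.74 (edgeR adjusted p = 0.0295). Whether reads of these neighbours entered the counts of Catsper2 and Hvcn1 was not tested.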

How the data were processed

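Unnormalized gene counts were deposited by the authors, 1 table for whole testis (rRNA-depleted RNA, Ion Proton, TopHat2 then Bowtie2, 12 libraries) and 1 for sorted cells (poly(A) RNA, HiSeq, 75 cycles, STAR; 12 round spermatid and 11 spermatocyte libraries), both on mm9. The counting tool, its annotation and its strand setting are not given in the sources used here. The deposited peak lists (Bowtie2, MACS, PeakSplitter, mm9) hold a signal height for CTCF and BORIS and a MACS score for Pol2 and H3K4me3, 1 list per mark and genotype. The submitters' processing notes also name Bowtie, Cufflinks 2.0.0 and DESeq2.

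From the counts, each of 15 comparisons was fitted over all genes with edgeR 4.0.16 (R 4.3.3; filterByExpr, TMM, robust quasi-likelihood F test), and a gene was called at a Benjamini-Hochberg adjusted p below 0.05. The tests used only the libraries of the groups compared, with no covariate. All genotypes were compared with the same WT libraries of their preparation. Whole testis replicates were separate preparations. For sorted cells nothing used here says that replicates came from separate animals, so p-values measure the spread between these libraries, which may be technical. Counting error is small at the totals reported, except for Hvcn1 in whole testis and for Catsper1, Catsper3 and Catsper4 in spermatocytes. CPM used library totals scaled by TMM factors computed within each count table, and RPKM used the union of annotated exons (Ensembl genes on mm9). Fits were tested on simulated data with 200 changed genes. Peaks were assigned to a gene within 2 kb of it and matched between lists at an overlap of at least 1 bp.

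Alternatives were the thresholds of the study (adjusted p below 0.001 and a fold above 2), RLE scaling, DESeq2 1.42.0, no low-count filter, all genotypes in 1 fit, the replicate number as a block, and each library left out. In whole testis all 18 pairs of equally numbered libraries deviated together from their group means (correlations of 0.121 to 0.631), so the numbers pair these preparations, as a property of the counts. A fit with a smooth G+C offset (span 0.3) was chosen after seeing the data, alone and with the block. Shares of all genes given for the G+C offset or the block count calls in both directions. Genes named by a rule were the 7 genes, Ctcf and Ctcfl, and the 3 genes nearest in pattern to each of the 7. Cell type marker lists are given as sums. From the list of ion transport genes some of those called were named, and its calls in several comparisons are not given. The genes and lists were chosen with earlier results of these data known. ChIP-seq coverage of sorted spermatocytes and input libraries were not used here. Scripts ran under Python 3.11.15 with pandas 2.3.3.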

Additional observations from a re-analysis of the deposited data

Results flagged for a closer look

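Round spermatids and spermatocytes labelled CM differed in their departure from WT at Catsper1 (-2.78 on the log2 scale), Catsper3 (-2.76) and Kcnu1 (-1.87). This was the test of the difference itself, on libraries labelled CM in which Ctcf was not lower than in WT. The 3 calls stood beside 3.43% of all genes called lower. Each of these calls was lost when 1 of several libraries was left out. Of the 10 spermatid markers, 5 were called lower in the same test (median -2.03), and their part was not tested. With the G+C offset Catsper1 (-2.97) and Catsper3 (-2.69) were still called, Catsper4 (-2.46, edgeR adjusted p = 0.0447) entered and Kcnu1 (-1.65, edgeR adjusted p = 0.0591) was not called.

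The effect of losing 1 Ctcf copy differed between mice without and with BORIS in round spermatids, by the same kind of test, at Catsper2 (1.26), Catsper4 (-0.89), Catsperb (1.75), Kcnu1 (0.77) and Hvcn1 (-1.65). The 5 calls stood beside 37.4% of all genes, and the Spearman correlation with G+C across genes was -0.613. None of the 5 was called with the G+C trend removed, and all rest on libraries labelled CM in which Ctcf was not lower than in WT.

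In libraries labelled CTCF HET, every library lay on opposite sides of WT in the sorted cell types for 5 genes, and the difference was not tested. How many of all genes did the same was not counted, so this is only a description. WT spermatocytes had 2 libraries, and CTCF HET spermatocytes had 12018 to 13406 genes detected against 17631 to 17683 in WT. The log2 fold changes in round spermatids and spermatocytes were -0.46 and 1.37 for Catsper1, -0.21 and 0.69 for Catsper2, -0.87 and 1.71 for Catsper3, -0.34 and 1.48 for Catsper4, and -0.68 and 1.11 for Kcnu1. BORIS KO showed the same at Catsper1, at -0.36 and 0.58, also not tested. Of the 10 spermatid markers, 7 were called lower in round spermatids and 4 higher in spermatocytes labelled CTCF HET, and their part was not tested.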

How the results depend on the processing

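Of 1127 values recomputed under another setting, 890 kept direction and side of the threshold, 153 fell out of the call, 57 entered it and 27 changed sign, of which 2 had been called. The causes were not tested unless the setting itself removes genes or libraries.

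Counts of the 7 genes called changed as follows. The share of all genes called also changes with the setting. Here and below, a count without that share beside it is no result about these genes. Under the thresholds of the study the count was 0 in CM whole testis, 0 in round spermatids and in spermatocytes of CTCF HET, 2 in both cell types of BORIS KO, 0 between CM and BORIS KO round spermatids, 4 between WT cell types, 0 for non-additivity in round spermatids and 0 for the CM effect between cell types. With all genotypes in 1 fit it was 2 in round spermatids of CTCF HET, 4 in those of BORIS KO and of CM, 2 in BORIS KO spermatocytes and 5 between CM and BORIS KO round spermatids. DESeq2 called 4 in CM round spermatids, beside 11.7% of all genes, and 3 in CM spermatocytes, beside 21.9%. It called 5 in CTCF HET spermatocytes and 5 between CM and BORIS KO round spermatids. The G+C offset gave 3 in BORIS KO spermatocytes, 0 between CM and BORIS KO round spermatids and 0 for non-additivity. The shares of all genes were 42.2%, 2.18% and 18.9%. With no low-count filter Catsper2 was lost in CM whole testis, Catsper1 in both cell types of BORIS KO, Catsper4 in round spermatids and Hvcn1 in spermatocytes of CTCF HET. The fit of all genotypes lost Catsper2 and Catsperb between WT cell types.

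With the replicate block 7 genes were called in CM and 2 in BORIS KO whole testis, and 1 in BORIS KO whole testis with block and G+C offset together, where CM whole testis gave 6 (Hvcn1, at 1.09, was lost at an edgeR adjusted p of 0.0506). In sorted cells the numbers did not pair the libraries (over 0.1 in 4 of 18 pairs of round spermatids and 1 of 15 of spermatocytes). There the block gave 4 calls in round spermatids and 4 in spermatocytes of CTCF HET, 7 and 6 in those of BORIS KO, and 0 in both of CM.

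With 1 library left out, the count ranged from 0 to 5 in CM whole testis. In round spermatids, then spermatocytes, the range was 2 to 5 and 0 to 4 for CTCF HET, and it ran for BORIS KO from 4 to 7 and 3 to 6, and for CM from 0 to 2 and 0 to 5. It ranged from 0 to 5 between CM and BORIS KO round spermatids, 6 to 7 between WT cell types, 4 to 6 for non-additivity in round spermatids and 0 to 4 for the CM effect between cell types. It stayed at 0 in CTCF HET and BORIS KO whole testis and for the other whole testis contrasts.

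Log2 values that changed sign were Hvcn1 in BORIS KO whole testis (0.033 with the block), Catsperb in CTCF HET round spermatids (0.20 with the G+C offset) and in CTCF HET spermatocytes (-0.0077 with the block, -0.43 with the offset), Kcnu1 (0.054) and Hvcn1 (-0.062) in BORIS KO spermatocytes with the offset, and Catsper2 (-0.11 with the block, -0.059 with the offset) and Catsperb (-0.41 with the offset) in CM spermatocytes. With the offset Kcnu1 was -0.35 between CM and BORIS KO round spermatids, Catsperb was -0.032 for non-additivity, and Catsperb (0.18) and Hvcn1 (-0.047) turned for the CM effect between cell types. With 1 library left out, the range crossed 0 for Hvcn1 in BORIS KO whole testis (-0.26 to 0.53), Catsper2 (-0.34 to 0.18), Catsperb (-0.30 to 0.13) and Hvcn1 (-0.58 to 0.30) in CM round spermatids, Catsperb in CTCF HET spermatocytes (-0.010 to 0.22), Catsper2 in CM spermatocytes (-0.10 to 0.19), Kcnu1 between CM and BORIS KO round spermatids (-0.069 to 0.28), and Catsper2 (-0.46 to 0.090) and Hvcn1 (-0.32 to 0.61) for the CM effect.

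Of 68 peaks at the genes over all lists, 34 lay in the upper 50% of heights or scores. Dividing by the longest transcript moved Catsper2 to 617.8 RPKM in WT round spermatids. Depth limits Hvcn1 most, at under 3 CPM in WT whole testis.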
